A study of Enchytraeus albidus with 21 samples.

Results

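The Ealb_Met clone library supplied 345 of the 1035 worm probes on a custom single-colour Agilent array for Enchytraeus albidus, the white potworm, and 290 of these 345 probes are described here. The members were chosen by measured detection: a probe was kept when it was detected on all 3 arrays of at least 1 group of experiment 1. A probe counted as detected on an array when the scanner software marked 0.5 or more of its spots, outlier spots aside, as well above background. The probe names give a plate position and a clone end, SP6 or T7, which are promoter sites that flank the insert of a cloning vector. Of the 290 members 250 bear the SP6 end and 40 the T7 end, and they come from 10 plates with 23 to 37 members each. No clone was represented by both ends. The prefix Met is not spelled out in the sources used here, and the files pair no probe with a gene name or a sequence, so members are named by probe and given no function.

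Enchytraeids are small soil annelids that feed on decaying plant matter and its microbes, and E. albidus is a standard test species in soil ecotoxicology. Acetone is a carrier solvent for poorly soluble chemicals in such tests, so solvent and water controls are usually run side by side. Clone libraries sample abundant transcripts more than once, so that separate clones, and separate probes, can report the same transcript.

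Each sample was a whole-body RNA extract of 10 adult worms with a developed clitellum, kept in its own vessel or taken separately from the culture. Experiment 2 had 4 replicates each after 2, 4 and 8 days in control soil. Experiment 1 had 3 replicates each of worms after 2 days in acetone-spiked soil, after 2 days in control soil (the water control) and straight from culture at day 0. Every vessel held 25 g of moist soil, and the photoperiod was 16 h light to 8 h dark at 20 °C. In whole-body extracts fewer cells of a type and less RNA per cell cannot be told apart.

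A level here is the mean log2 signal of a probe's spots minus the 75th percentile of the log2 signals of that array, so that 1 unit is a 2-fold change. The signal at that percentile ranged from 868 to 3720, and single arrays detected 200 to 290 members (median 286). Detection was poorest on culture replicate 3 (200 members) and 8-day replicate 3 of experiment 2 (241), whose lowest detected levels were −4.74 and −4.19, against −8.64 to −6.36 on the other 19 arrays. The 3 dimmest arrays of experiment 2 were 2-day replicate 1 (868), 8-day replicate 3 (973) and 2-day replicate 3 (1150). Pairs of arrays were compared after the median difference between the 2 arrays was removed. In experiment 2 the 2-day arrays numbered 2 and 4 then differed by a median of only 0.0519 over the members. For the next closest pair of arrays this was 0.158. On the same measure 0 of the 290 members differed by over 1 unit between 2-day arrays 2 and 4. They were averaged and counted as 1 sample, which left 3 samples at 2 days. A newer scanner model read 2 arrays, namely replicates 1 and 2 at 4 days. On it no member was saturated, while the other 19 arrays ended at a log2 signal of 16.0 to 16.1.

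Because detection in experiment 1 chose the members, their detection there is a description. All arrays detected 184 members, the 9 arrays of experiment 1 detected 200, and the 12 arrays of experiment 2, which the rule did not use, detected 222. By group, 277, 253 and 240 members were detected on every array at 2, 4 and 8 days of experiment 2, and 266, 287 and 200 in acetone, water control and culture. Of the 90 members not detected on every culture array, 83 were missed on culture replicate 3 alone. Of the 290 members 27 were complete in only 1 group of experiment 1, 24 of them in the water control, 3 in acetone and 0 in culture. Just inside the rule lay Ealb_Met_P9_H1_SP6_2091174 and Ealb_Met_P7_C5_SP6_2090632, each detected on 4 of 9 arrays, with mean levels in experiment 1 of −7.85 and −7.47. Just outside it lay Ealb_Met_P2_E9_SP6_2090299 and Ealb_Met_P10_A11_SP6_2091240, also on 4 of 9 arrays but on no group's full set, at −7.40 and −7.47. Among the 55 probes left out, 16 were detected on no array of experiment 1, and 6 were detected on every array of a group of experiment 2.

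Acetone was compared with water to ask what the carrier solvent alone does. After 2 days in acetone soil 4 members were higher and 17 lower than in the water control (limma, adjusted p under 0.05), or 21 of 290. Over all 883 probes tested 6.23% were called, 2.15% higher and 4.08% lower, so the members' shares of 7.24%, 1.38% and 5.86% lie near those of the array as a whole. The 4 higher members were P7_C1, P7_G8, P7_C5 and P6_D3, short for Ealb_Met_P7_C1_SP6_2090602, Ealb_Met_P7_G8_T7_2175288, Ealb_Met_P7_C5_SP6_2090632 and Ealb_Met_P6_D3_SP6_2090528. The last 2 fall outside the naming rule of 2 members per direction and were chosen after their values were seen, because only 4 were higher.

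P7_C1 had levels of 2.72, 2.75 and 2.82 in acetone worms, against 0.03, −4.73 and −5.85 in water control worms. The acetone samples were almost equal and all higher, while the controls were split, with replicate 1 far above the other two. The difference was 6.28 ± 1.19 (SE), 77.8-fold, with an adjusted p of 0.0217. P7_G8 had 0.64, 0.39 and 1.36 in acetone worms, against −1.25, −6.66 and −7.88 in water control worms. Again control replicate 1 lay nearest to the acetone samples without reaching them, and control replicate 3 was not detected. The difference was 6.06 ± 1.37 (SE). Without control replicate 1 the differences were 8.06 and 8.07 for P7_C1 and P7_G8.

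P7_C5 had −4.85, −5.43 and −5.17 in acetone worms, against −6.63, −10.15 and −9.74 in water control worms. All 3 acetone samples were detected and only replicate 1 of the controls was, and the groups did not overlap. Since most of the controls were below background, no size of the difference is given. P7_G8 and P7_C5 became members through the acetone arrays alone, where they are high, so their values are a description. P6_D3 had 0.00, 0.29 and 0.47 in acetone worms, against −1.05, −1.42 and −1.86 in water control worms, all detected and apart. It differed by 1.70 ± 0.35 (SE), 3.24-fold, with an adjusted p of 0.0297.

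The 17 lower members differed by 1.64- to 5.22-fold in the fit, with a median of 2.04-fold. Ealb_Met_P6_G2_SP6_2090523 had −6.27, −7.26 and −7.14 in acetone worms, against −5.80, −3.29 and −4.44 in water control worms. The groups lay side by side without overlap and differed by −2.38 ± 0.61 (SE; adjusted p = 0.0498). Ealb_Met_P10_E5_SP6_2090813 had −7.91, −8.47 and −8.72 in acetone worms, where only the first was detected, against −7.41, −5.94 and −6.70 in water control worms, all detected, and it became a member through the water control alone. For 2 of the 17, Ealb_Met_P9_H1_SP6_2091174 and Ealb_Met_P2_D6_SP6_2090275, no acetone array was above background, so their water control levels are at least 1.38-fold and 1.30-fold higher. These are lower bounds, the mean of the detected group set against the lowest detected level, or the probe's own where higher, on each array of the other group. Both also became members through the water control alone. Among the 21 called, 2 higher and 13 lower members were detected on every array of both groups. The other 2 higher ones were complete in acetone only and the other 4 lower ones in the water control only, so that detection had chosen them by the group where they are high.

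**Figure D1:**
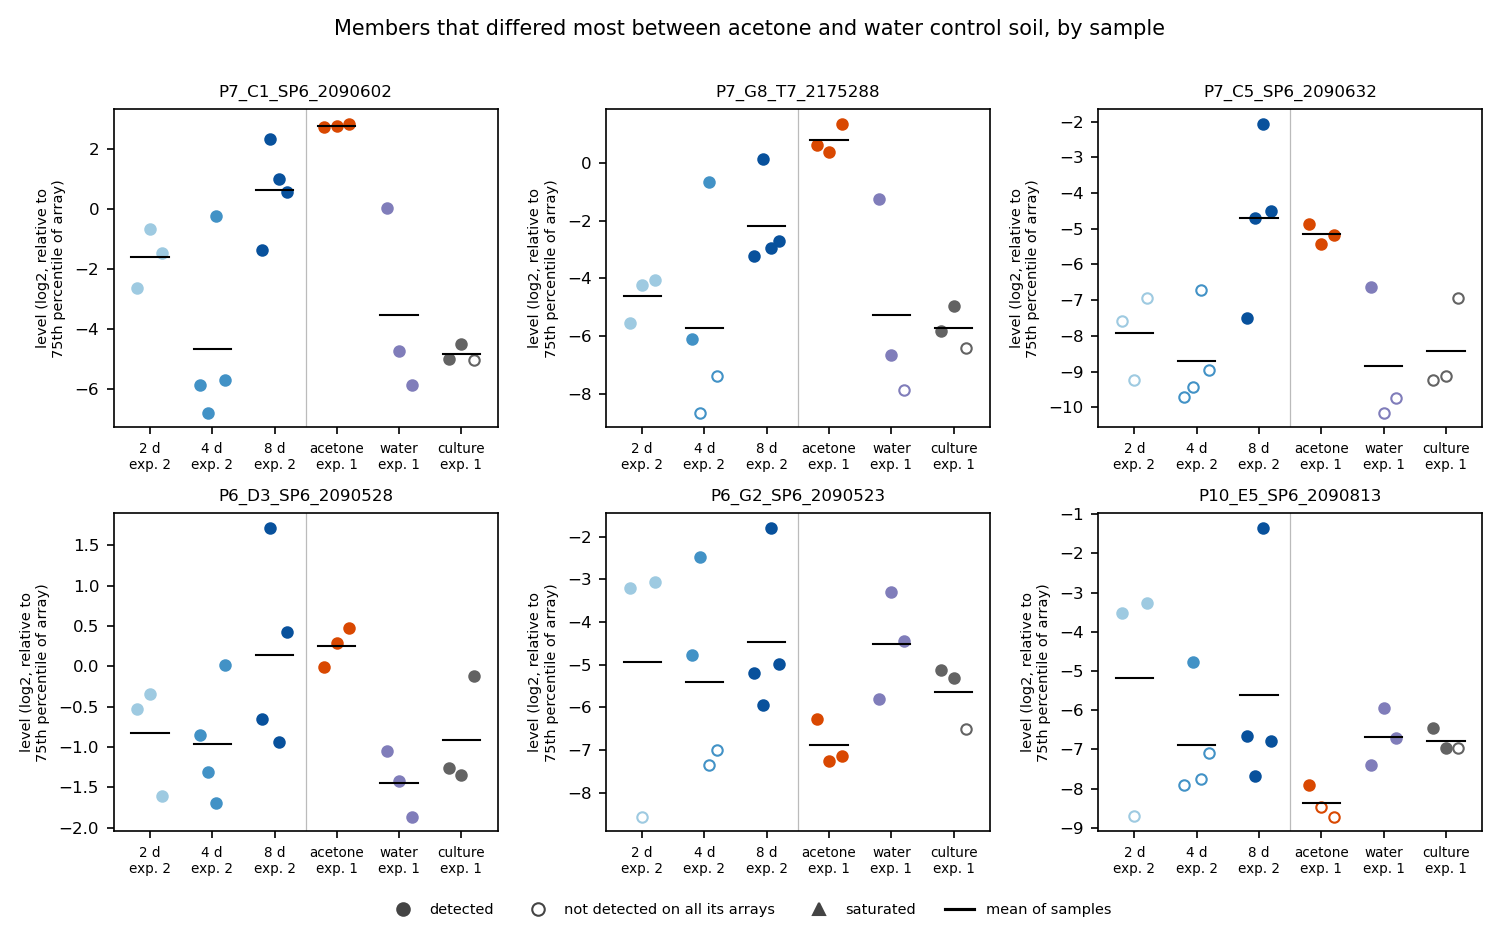
Levels (log2, relative to the 75th percentile of the array) of the 4 members higher in acetone soil and the 2 named lower ones, for each sample of the 6 groups. Filled points were detected, open points were not detected on all their arrays, and black lines are group means. P7_C1 lies between 2.72 and 2.82 in acetone and splits into 0.03 against −4.73 and −5.85 in the water control.

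The shift common to most members depended on how arrays were scaled. Differences of all 883 probes had a median of −0.31 and those of the members −0.31, and 221 of 290 members were negative. After quantile normalization the medians were −0.06 over all probes and −0.10 over members, with 0 members higher and 2 lower. After centring each array on its median they were 0.05 and 0.05, with 132 of 290 members negative, 4 called higher and 0 lower. So the 17 lower members had the same direction as the general shift of −0.31, and the 4 higher ones the opposite direction. After normexp background correction 3 were higher and 6 lower. At an unadjusted p under 0.05 there were 86 members (29.7%), against 29.9% of all probes. The levels of 106 of 290 members (36.6%) did not overlap between the groups, 9 higher and 97 lower, against 37.4% of all probes. Acetone and water control arrays shared no scan day, so scan day and treatment cannot be told apart here. The count of 21 rested on single samples: it was 0 without acetone replicate 2, water control replicate 2 or water control replicate 3. It was 3 without acetone replicate 1, 9 without acetone replicate 3, 12 without control replicate 1, 11 without culture replicate 1 and 5 without culture replicate 2. The count rose to 30 without culture replicate 3, the array with the fewest members detected.

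**Figure D2:**
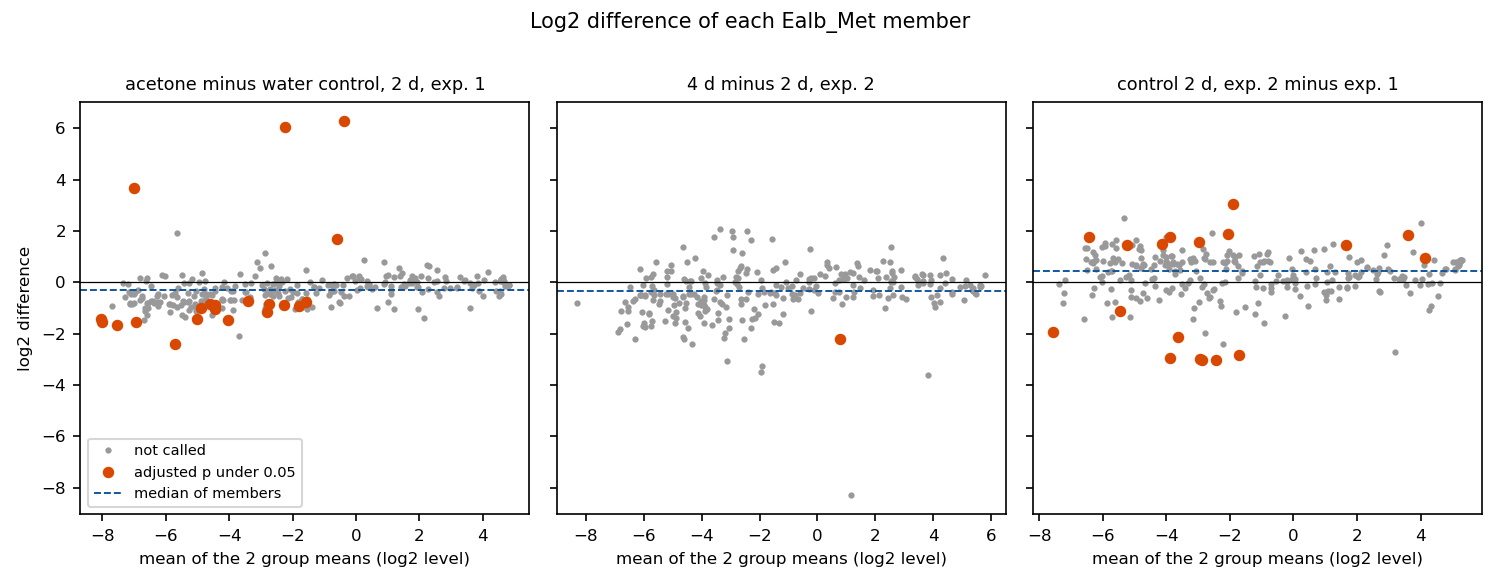
Log2 difference of each member against its mean level in the 2 groups compared, for acetone minus water control, 4 days minus 2 days, and experiment 2 minus experiment 1 at 2 days. Orange points passed an adjusted p of 0.05 and the dashed line is the members' median. In the left panel P7_C1 and P7_G8 stand at 6.28 and 6.06, above a cloud centred at −0.31.

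Acetone worms were also set against worms straight from culture. Here 3 members were higher and 14 lower, 17 of 290 (5.86%), against 6.23% of all 883 probes (2.27% higher, 3.96% lower). This comparison shares its acetone samples with the one above, so the 2 sets of calls are not independent. P7_C1 had 2.72, 2.75 and 2.82 in acetone worms, against −4.99, −4.50 and −5.04 in culture worms, where all samples were low and replicate 3 was not detected. The difference was 7.61 ± 1.19 (SE), 195-fold, with an adjusted p of 0.00576. P7_G8 differed by 6.53 ± 1.37 (SE), with −5.83, −4.94 and −6.42 in culture worms, the last not detected, and is again a description. The third higher member, Ealb_Met_P9_F10_SP6_2090760, was chosen after its values were seen. It had −4.85, −4.42 and −4.75 in acetone worms, all detected, against −8.72, −7.64 and −6.95 in culture worms, where only 1 of 3 arrays was above background. It became a member through the acetone arrays alone, so no size or test is given.

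Among the lower members Ealb_Met_P3_G9_SP6_2090396 had −3.69, −3.18 and −3.20 in acetone worms, against −1.54, −2.24 and −1.46 in culture worms. Every acetone sample lay below every culture sample, by 1.61 ± 0.31 on average (SE; adjusted p = 0.0154). Ealb_Met_P2_D6_SP6_2090275 was above background in none of the acetone samples and in 2 of 3 culture samples, at −5.78 and −6.27, with −6.92 in the third. It was at least 2.60-fold higher in culture worms.

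Among the 17 called, 10 lower members were detected on every array of both groups, and the 3 higher ones were complete in acetone but not in culture. Of the other lower ones, 1 was complete in acetone only. The remaining 3 were complete in neither group, so they became members through the water control alone. Groups did not overlap for 79 members (27.2%), 16 higher and 63 lower, against 22.4% of all probes, and 77 members (26.6%) had an unadjusted p under 0.05, also against 22.4%.

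The files give scan day, slide and scanner model. Of the scan days, 1 held arrays of both groups, namely acetone replicate 1 with culture replicates 1 and 3. Within that day the members' median difference was −0.20, against −0.24 over all samples. The called members had no overlap between the groups, so the sign of each within the day was fixed. With scan day as a fixed block, chosen after seeing the data, 0 members passed in limma, and that fit rests on these 3 arrays. The count of 17 was 2 without culture replicate 1, 3 without culture replicate 2, 30 without culture replicate 3, 7 without acetone replicate 1 and 10 without acetone replicate 3. It was also 11 and 8 without water control replicates 2 and 3, which share the fit. The split of 3 higher and 14 lower became 8 and 17 after quantile normalization and 7 and 6 after median centring.

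The move from culture into control soil was tested with the water control against culture. No member passed (limma, smallest adjusted p 0.109), against 0.113% of all 883 probes, which was 1 probe. At an unadjusted p under 0.05 there were 40 members (13.8%), against 17.4% of all probes, and 95 members (32.8%) did not overlap between the groups, against 32.6%. The smallest p among higher members belonged to Ealb_Met_P1_H3_T7_2175207, with −2.75, −2.18 and −2.44 in control soil, against −3.58, −3.46 and −3.50 in culture. All control soil samples lay above all culture samples, by 1.06 ± 0.20 (SE), and the adjusted p of 0.109 missed the threshold. On the other side Ealb_Met_P6_H9_SP6_2090577 had 1.63, 1.67 and 1.36 in control soil, against 2.55, 2.24 and 2.45 in culture (difference −0.86 ± 0.22, SE; adjusted p = 0.119). Without acetone replicate 2, which shares the fit, 6 members passed. Scan day and group cannot be told apart for the water control, whose 3 arrays were all scanned on a day of their own.

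Ealb_Met_P6_H9_SP6_2090577, P6_H9 for short, was also the only member called in the time series of experiment 2. Its levels were 2.23, 1.61 and 1.85 at 2 days, −0.15, −1.02, −0.34 and 0.19 at 4 days, and 1.63, 1.13, 1.53 and 1.21 at 8 days. The 4-day samples lay below all others, while those at 2 and 8 days overlapped. It fell by 2.23 ± 0.35 (SE), 4.68-fold, at 4 days relative to 2 days (adjusted p = 0.0194). It was 1.70 ± 0.32 (SE) higher at 8 days than at 4 days, 3.26-fold (adjusted p = 0.0385). Between 8 and 2 days the difference was −0.52 ± 0.35 (SE; adjusted p = 0.984). These comparisons share samples: the 4-day group enters both calls. No scan day was shared between the times of experiment 2, so scan day and time cannot be told apart in any of them. In experiment 1 P6_H9 had 1.29, 1.84 and 1.27 in acetone worms, which was below culture (−0.94 ± 0.22, SE; adjusted p = 0.0351) and overlapped with the water control.

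P6_H9 was thus 1 of 282 members called at 4 against 2 days (0.355%), against 0.466% of 859 probes, and 1 of 282 at 8 against 4 days (0.355%), against 1.05%. At 8 against 2 days no member and no probe of all 859 (0%) passed in limma, and 12 members (4.26%) had an unadjusted p under 0.05, against 4.89% of all probes. Groups did not overlap for 21 members (7.45%) at 4 against 2 days, 23 (8.16%) at 8 against 2 days and 12 (4.26%) at 8 against 4 days, against 7.68%, 9.08% and 4.66% of all probes. At an unadjusted p under 0.05 there were 31 members (11.0%) at 4 against 2 days and 22 (7.80%) at 8 against 4 days, against 10.8% and 7.22%. Differences from 2 days had medians of −0.35 at 4 days and −0.24 at 8 days over members, against −0.26 and −0.16 over all probes. The members' median at 4 days was −0.09 after quantile normalization and 0.02 after median centring, and that at 8 days was −0.11 and −0.21.

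The call of P6_H9 at 4 against 2 days was lost when 2-day replicate 1 or 3 or 4-day replicate 1 was left out. It was also lost in a fit without the 2 arrays of the newer scanner, which leaves only replicates 3 and 4 at 4 days. Whether the scanner or the smaller number of samples mattered there was not tested. A fit without the 3 dimmest arrays leaves only the averaged pair at 2 days, so no call is given for that fit. Without the averaged pair of 2-day arrays 4 members passed at 4 against 2 days, without 4-day replicate 4 there were 6, and without 4-day replicate 3 or 8-day replicate 4 there were 2. Its call at 8 against 4 days was lost whichever single sample was left out, with the averaged 2-day pair as the exception. Other members then passed in 2 of these fits, 2 members without 4-day replicate 3 and 1 without 8-day replicate 1.

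Other members with the smallest p in these comparisons are given as values. Ealb_Met_P5_F10_T7_2175273 had −3.88, −2.33 and −4.06 at 2 days, −1.22, −1.39, −1.14 and −1.92 at 4 days, and −2.55, −2.63, −3.05 and −2.79 at 8 days. The 4-day samples lay above all others of experiment 2, with a difference from 2 days of 2.00 ± 0.43 (SE; adjusted p = 0.0677). Ealb_Met_P4_B1_SP6_2090421 had −2.93, −2.04 and −3.58 at 2 days, −2.38, −2.32, −2.90 and −3.04 at 4 days, and −4.96, −5.70, −3.52 and −4.29 at 8 days. The 8-day samples lay below all 4-day samples, while 8-day replicate 3 overlapped with the 2-day group. The differences were −1.77 ± 0.53 from 2 days (SE; adjusted p = 0.454) and −1.95 ± 0.49 from 4 days (SE; adjusted p = 0.133). Ealb_Met_P4_G7_SP6_2090089 differed by 1.88 ± 0.49 between 8 and 2 days (SE; adjusted p = 0.290).

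Ealb_Met_P3_F12_SP6_2090417 had the widest range of group means of all members, 8.30 units. It had 6.03, 4.95 and 4.98 at 2 days, −4.66, −3.49, −5.50 and 1.73 at 4 days, and 4.85, 2.44, 2.52 and −2.23 at 8 days. At both later times the samples of a group lay far apart, and 4-day replicate 4 and 8-day replicate 4 were the odd ones out. The 4- against 2-day difference of −8.30 ± 1.76 (SE) missed the threshold (adjusted p = 0.0677). In experiment 1 it was saturated on all 9 arrays, with levels of 4.12 to 5.39, so those levels are lower bounds, as are those of the averaged 2-day pair and 8-day replicate 1. The other members with the widest ranges of group means were P7_C1 (7.61), P7_G8 (6.53) and P7_C5 (4.15), and the median member had a range of 1.21.

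**Figure D3:**
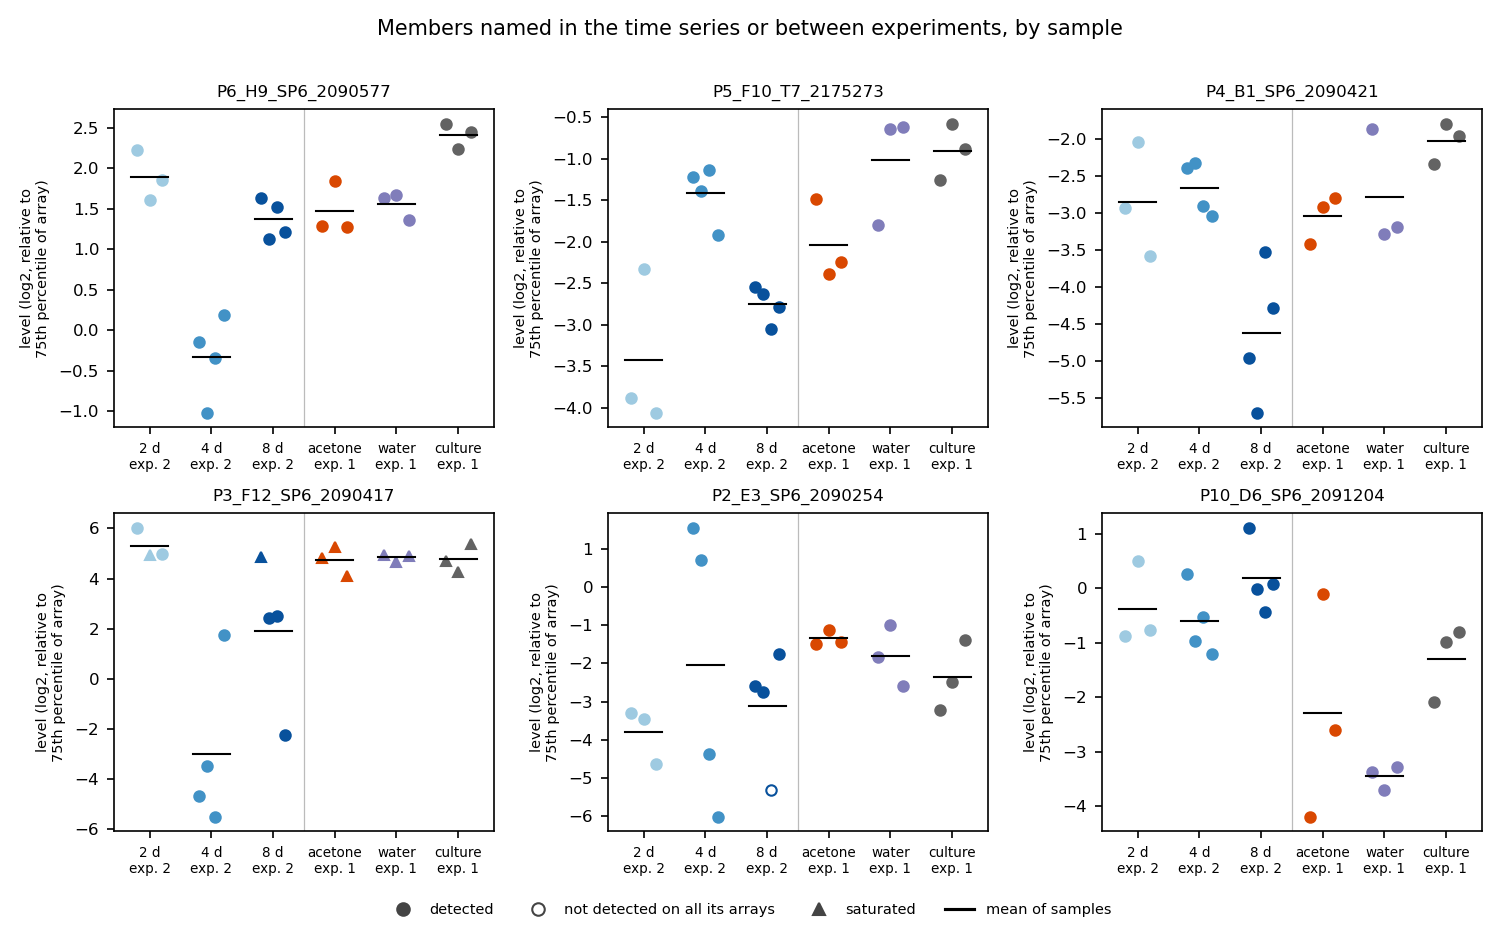
Levels of 6 members in each sample of the 6 groups, with triangles for samples saturated on all their arrays and open points for samples not detected. P6_H9 lies between −1.02 and 0.19 at 4 days, below all other samples, and P3_F12 lies between 4.12 and 5.39, saturated, throughout experiment 1.

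The 3 leading acetone members varied in control soil of experiment 2 as well. P7_C1 had −2.62, −0.69 and −1.48 at 2 days, −5.87, −6.78, −0.25 and −5.71 at 4 days, and −1.37, 2.32, 0.99 and 0.55 at 8 days. So 4-day replicate 3 stood well above its group, and 8-day replicate 2 came nearest to the acetone samples. P7_G8 had −3.24, 0.13, −2.96 and −2.71 and P7_C5 had −7.48, −4.71, −2.06 and −4.50 at 8 days. P7_C5 was detected in all 4 of these samples and in none at 2 or 4 days. Differences between 8 and 4 days were 5.28 ± 1.27 for P7_C1 (SE; adjusted p = 0.109) and 3.51 ± 1.44 for P7_G8 (SE; adjusted p = 0.645). P7_C5 was at least 5.49-fold higher at 8 than at 4 days (adjusted p = 0.152), and none of the 3 passed. Over the 20 samples the profile nearest to that of P7_C1 was that of the probe Contig8, with an SD of the difference of 0.27. Contig119 followed with an SD of 0.36, and then P7_G8 with 1.02. These SDs compare profiles and not amounts, and all probes share the arrays and their scaling.

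The 2-day controls were the same treatment in both experiments. In experiment 2, 10 members were higher and 8 lower than in experiment 1, 18 of 289 (6.23%), against 7.42% of 889 probes (2.81% higher, 4.61% lower). The medians of the differences were 0.44 over members and 0.33 over all probes, and 100 members (34.6%) did not overlap, against 35.9%. At an unadjusted p under 0.05 there were 78 members (27.0%), against 27.4%. After normexp background correction 5 members were higher and 9 lower. Ealb_Met_P10_D6_SP6_2091204 had −0.88, 0.50 and −0.77 in experiment 2, against −3.37, −3.70 and −3.28 in experiment 1. It was higher in every sample, by 3.07 ± 0.41 (SE), 8.37-fold, with an adjusted p of 0.0131. Ealb_Met_P5_H7_T7_2175268 had −1.20, −0.62 and −1.52 in experiment 2, against −3.41, −2.52 and −3.02 in experiment 1, a difference of 1.87 ± 0.35 (SE; adjusted p = 0.0308).

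The lower members included 5 with like profiles. Ealb_Met_P5_G8_SP6_2090476 had −4.22, −3.23 and −4.40 in experiment 2, against −1.37, −0.60 and −0.75 in experiment 1, a fall of 3.04 ± 0.40 (SE; adjusted p = 0.0131). Ealb_Met_P4_D7_T7_2175256 had −4.89, −3.56 and −4.77 in experiment 2, against −1.84, −1.24 and −1.08 in experiment 1, and differed by −3.02 ± 0.43 (SE; adjusted p = 0.0131). With Ealb_Met_P4_G7_SP6_2090089, Ealb_Met_P6_C12_SP6_2090595 and Ealb_Met_P8_D1_SP6_2090692, named here after their values were seen, they fell 7.11- to 8.24-fold. At 4 and 8 days of experiment 2 the same 5 differed from 2 days by 1.39 to 2.09 and by 1.20 to 1.88 units, and none passed the test (adjusted p of 0.154 to 0.279 and of 0.290 to 0.976).

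Experiment and scan day cannot be told apart here, since no day held 2-day control arrays of both experiments. With scan day as a random block 0 members passed, and the correlation within a day was 0.841. In that fit the averaged pair counted as a day of its own. The only day with more than 1 sample was that of the 3 water controls of experiment 1. The correlation thus cannot separate scan day from the closeness of that group. The count of 18 was 0 without any one of water control replicates 1, 2 and 3 of experiment 1 or 2-day replicate 1 of experiment 2. Without the averaged pair of 2-day arrays it was 169, 131 higher and 38 lower, with 2-day replicates 1 and 3 left, both among the 3 dimmest arrays.

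Members varied more between replicates in experiment 2 than in experiment 1. The SD of a member between samples of a group had a median of 0.625 at 2 days, 0.754 at 4 days and 0.638 at 8 days of experiment 2, against 0.386 in acetone, 0.182 in the water control and 0.273 in culture. The SD exceeded 1 for 62, 89 and 85 members at 2, 4 and 8 days of experiment 2, against 7, 7 and 3 in acetone, water control and culture. Pooled over the groups of an experiment it was larger in experiment 2 for 279 of 290 members, with a median ratio of 2.25. The other 593 probes detected by the same rule showed the same direction, larger for 539 of them with a median ratio of 1.83. Detection in experiment 1, and not in experiment 2, chose both sets of probes, so these counts are a description. Over the 184 members detected on all 21 arrays, the medians were 0.501, 0.682 and 0.493 at 2, 4 and 8 days, against 0.346, 0.153 and 0.216 in acetone, water control and culture. Signal strength differed too, and single samples mattered: the median at 2 days was 0.249 without the averaged pair, and that at 8 days 0.427 without replicate 3. The part that signal strength, scanner or scan day had in the spread was not tested.

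**Figure D4:**
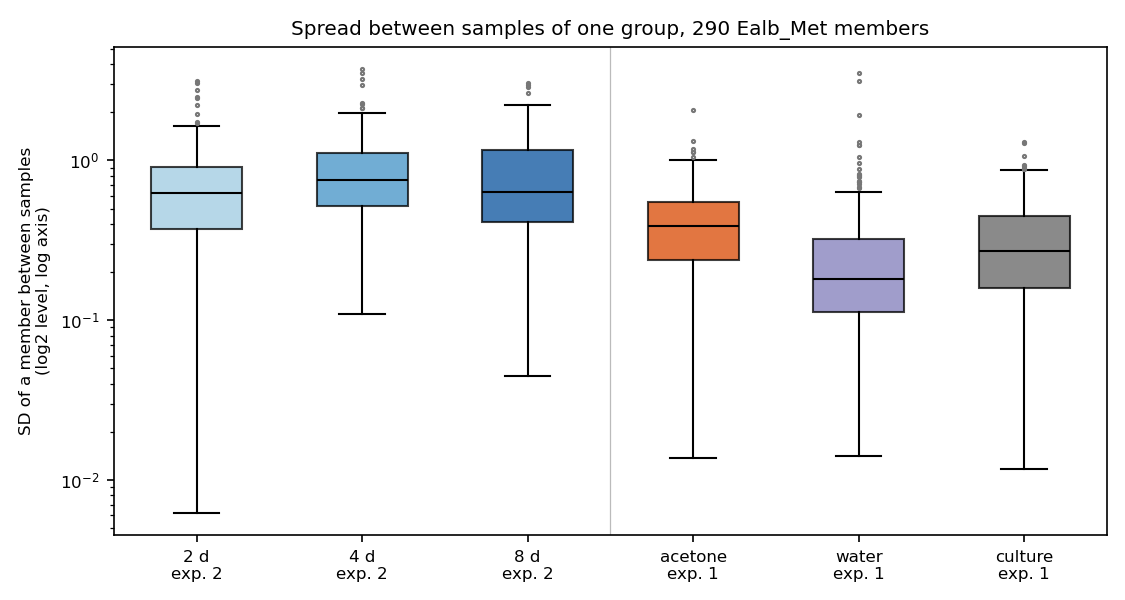
SD of each of the 290 members between the samples of a group, on a log axis, as box plots with median, quartiles, whiskers to 1.5 times the interquartile range and single points beyond. The 3 groups of experiment 2 have medians of 0.625 to 0.754, and those of experiment 1 have 0.182 to 0.386.

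The members that varied most in experiment 2 were P3_F12 (pooled SD 2.71), Ealb_Met_P10_E5_SP6_2090813 (2.50) and Ealb_Met_P2_E3_SP6_2090254 (2.49). The last had −3.29, −3.44 and −4.64 at 2 days, 1.55, 0.71, −4.37 and −6.01 at 4 days, and −2.58, −2.76, −5.31 and −1.76 at 8 days. Its 2 high values are the 2 arrays read on the newer scanner. In experiment 1 the largest pooled SDs were those of P7_G8 (2.10), P7_C1 (1.81) and P7_C5 (1.35), whose water control replicate 1 lay far above the other two.

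The steadiest member in both experiments was Ealb_Met_P5_E8_T7_2175269, with a pooled SD of 0.20 in experiment 2 and 0.08 in experiment 1. Its levels lay between 0.07 and 0.80 in experiment 2 and between 0.00 and 0.37 in experiment 1. Next in experiment 2 were Ealb_Met_P10_C5_SP6_2090811 (0.21) and Ealb_Met_P7_C12_SP6_2090684 (0.22), and in experiment 1 Ealb_Met_P10_A12_SP6_2091248 (0.08) and Ealb_Met_P9_D6_T7_2175055 (0.09). Ealb_Met_P10_A12_SP6_2091248 was not detected on 2 of the 9 arrays of experiment 1.

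At the upper end of the signal range lay 5 members whose levels carry little information on differences. They were Ealb_Met_P10_D4_SP6_2090805, Ealb_Met_P7_B8_SP6_2090652, Ealb_Met_P6_D10_SP6_2090581, Ealb_Met_P4_D3_T7_2175250 and Ealb_Met_P3_A9_SP6_2090391. They were saturated on 17 to 19 of 21 arrays, so that their levels there follow the array's 75th percentile, and 30 members were saturated on at least 1 array. An exception was 4-day replicate 3, where Ealb_Met_P4_D3_T7_2175250 had 2.76, against 4.12 to 7.73 elsewhere. At the lower end lay P2_D6, Ealb_Met_P9_H1_SP6_2091174, Ealb_Met_P7_F5_SP6_2090635, P7_C5 and Ealb_Met_P9_D3_SP6_2091186, detected on 8 to 13 of 21 arrays. No called member was saturated on every array of a group. Because probes differ in how well they bind, these ends rank signals and not transcript amounts.

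Some members had almost the same profile over all 20 samples. Of the 71 members with an SD over 1 across samples, 2485 pairs were compared and 80 of them (3.22%) had a Pearson correlation over 0.9, against 3.89% of pairs among all 193 such probes of the array. The 6 nearest pairs were chosen for their likeness, so no p is given. Ealb_Met_P2_H10_SP6_2090310 and Ealb_Met_P3_C7_SP6_2090377 had an SD of the difference of only 0.12, while the first ranged from −5.92 to 0.93. Ealb_Met_P10_B7_SP6_2091210 followed Ealb_Met_P1_A5_SP6_2090173 with an SD of the difference of 0.14 and Ealb_Met_P9_C5_SP6_2090720 with 0.29. The remaining pairs were Ealb_Met_P2_H2_SP6_2090249 with Ealb_Met_P5_G1_SP6_2090137 (0.22), Ealb_Met_P3_B4_SP6_2090352 with Ealb_Met_P5_A7_SP6_2090463 (0.22), and Ealb_Met_P6_C12_SP6_2090595 with Ealb_Met_P8_D1_SP6_2090692 (0.28). Whether the clones of a pair hold the same transcript was not tested.

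Joined through such pairs, 44 members formed 8 groups of 2 to 15, a grouping made after the values were seen. A group of 15 members from 9 plates lay above its members' own means by 1.60 and 1.92 in 2-day replicates 1 and 3 and by 2.50 in 8-day replicate 3, and below them by 2.40 in 4-day replicate 1. A group of 12 members from 8 plates, with P6_G2 and P10_E5 in it, lay above by 1.75, 1.89 and 3.13 in the same 2-day and 8-day samples and by 1.68 in 4-day replicate 2. The 3 samples that both groups have in common at the top are the 3 dimmest arrays of experiment 2, and the part that signal strength had in it was not tested. In acetone worms the group of 12 lay 0.94, 1.42 and 1.35 below the members' means, against 0.63 and 0.18 below and 0.35 above in water control worms. Of its 12 members 4 were among the 17 lower ones, which were 5.86% of all members, against 4.08% of all probes. In the group of 15, 0 members were called. Likeness over these same samples formed the groups, so the calls within a group are not independent and the 4 are a description.

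The group of 5 described above lay 1.92, 1.12 and 2.32 below its members' means in the 2-day samples of experiment 2, against 0.82, 1.28 and 1.42 above in the water control of experiment 1. At 4 days its replicates split, from 1.18 below in replicate 4 to 1.02 above in replicate 2. A group of 4, with Ealb_Met_P2_H10_SP6_2090310 and Ealb_Met_P3_C7_SP6_2090377, lay 4.22 below in 8-day replicate 4, 2.90 and 1.56 below in 4-day replicates 1 and 2, and 1.56 and 2.65 above in 2-day replicates 1 and 3.

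**Figure D5:**
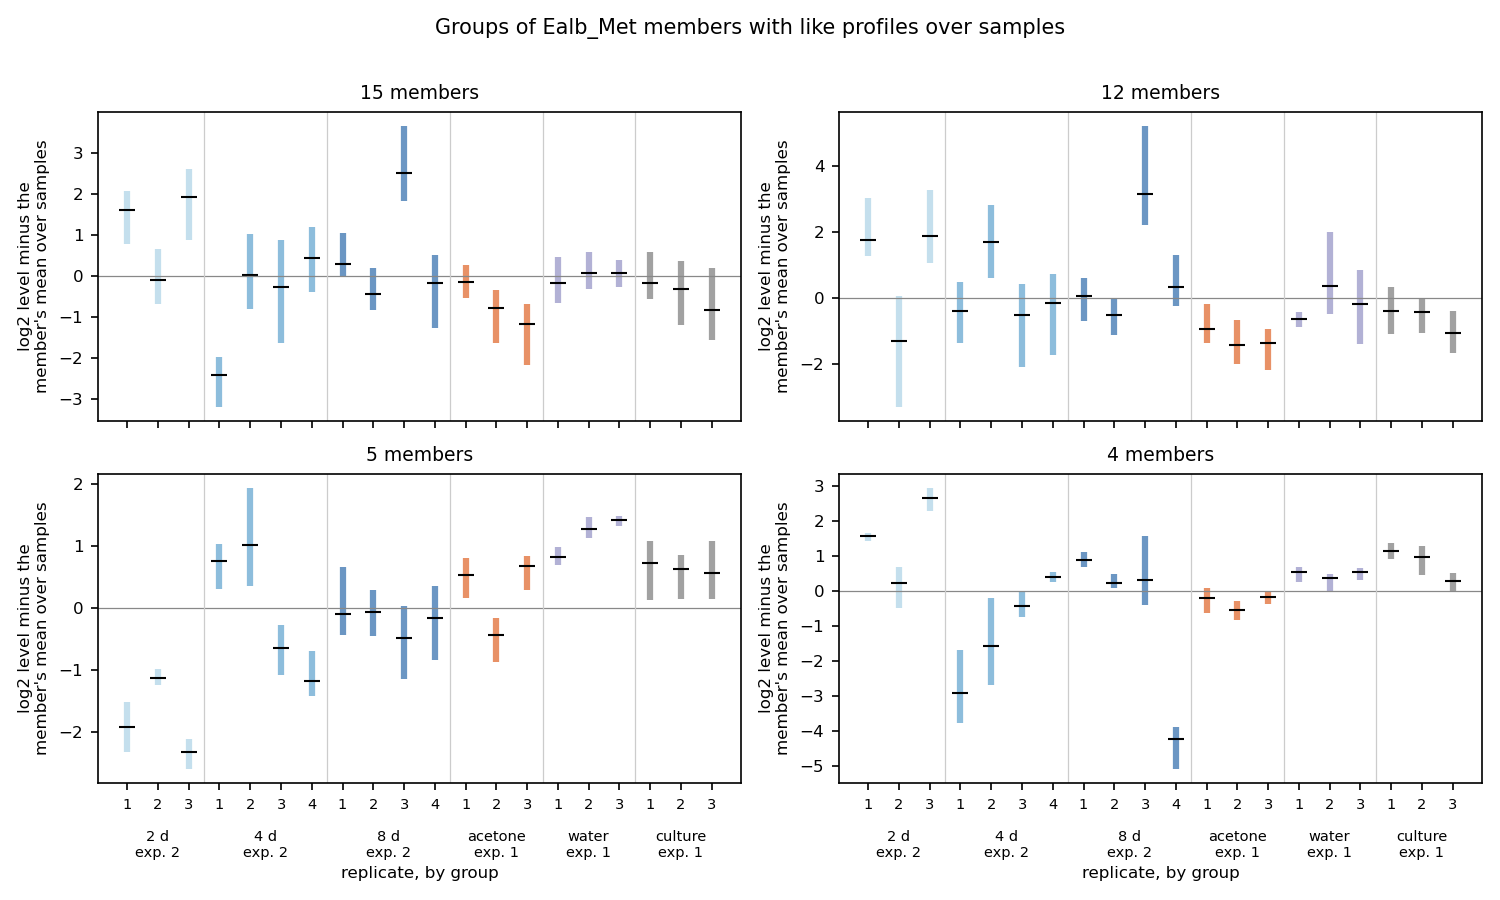
Deviation of members from their own mean over 20 samples, for the groups of 15, 12, 5 and 4 members with like profiles. Bars span the lowest to the highest member and ticks are means, by replicate within the 6 groups. The groups of 15 and 12 peak in 8-day replicate 3 at 2.50 and 3.13, and the group of 5 lies 1.12 to 2.32 below its members' means in the 2-day samples of experiment 2.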

How the data were processed

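The 21 arrays were read from the deposited scanner files, whose processed spot intensity is background-subtracted and detrended, per the file headers. They came from Agilent Feature Extraction 10.5.1.1, which the submitters' processing notes also name, or 10.7.3.1 for 2 arrays, on scanner models G2505B and G2505C, per the file headers. The authors' deposited log2 table, with 144 missing values, tracked the same arrays (correlations of 0.970 to 0.999), was normalized within each experiment by a method not given in the sources used here, and served as an alternative within an experiment.

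Each array held 15744 spots, 536 of them controls. Control and outlier spots (2.79% to 6.37%) were left out. A probe's level was the mean log2 intensity over its spots, less the array's 75th percentile. Tests used limma 3.58.1 in R 4.3.3 (two-sided, Benjamini-Hochberg over all probes tested), with the 3 groups of an experiment in 1 fit and the 2-day controls of both experiments in another. A probe was tested when detected on all arrays of at least 1 group in the fit. The fits were also run on simulated data with independent noise for each sample and no shift of whole arrays or scan days. That run therefore does not bear on how the counts depend on scaling, scan day or single samples. The normexp alternative (offset 50) used the deposited median spot intensity in place of the mean. The number of arrays limits the precision.

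The members, the lists and the tests were chosen with earlier results of these data known. Named members were, per comparison, the 2 largest differences in each direction among called members without overlap (all where 5 or fewer passed, and where none did the smallest p), and the extremes of level, spread, range and likeness. Alternatives changed the scaling, background correction, filter, blocks and samples.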

Additional observations from a re-analysis of the deposited data

Results flagged for a closer look

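Named members were examined for single samples far from the rest in the 4- and 8-day groups, which have 4 samples each. Of 88 such sets 6 held one. Chance gives about 1 in 20 for sets not picked by their values, and these members were in part picked for spread, range or level, so the count is not read against that rate. P7_C1 had −0.25 in 4-day replicate 3, against −6.78 to −5.71 in the other 4-day samples. P7_G8 had 0.13 in 8-day replicate 2, against −3.24 to −2.71 in the others. Of these, 3 fall on 8-day replicate 3, a dim array with a high lowest detected level. There Ealb_Met_P10_E5_SP6_2090813 had −1.35, against −7.67 to −6.66. Ealb_Met_P9_F10_SP6_2090760 had −1.64, against −4.47 to −4.10. Ealb_Met_P6_C12_SP6_2090595 had −3.77, against −2.90 to −2.81. Ealb_Met_P10_C5_SP6_2090811 had −2.34 in 4-day replicate 2, read on the newer scanner, against −2.86 to −2.80.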

How the results depend on the processing

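Acetone against water control, with 21 members called, gave 2 after quantile normalization, 4 after median centring, 9 with normexp, 9 with no filter, 12 with a strict filter, 82 with scan day and 33 with slide as a random block, 0 in the authors' deposited values, 10 with only these groups, and 0 to 30 with a sample left out. Water control against culture, with 0, gave 3 with no filter, 1 with a strict filter, 16 and 5 with day and slide blocks, 4 with only these groups, and 0 to 6 with a sample left out. Acetone against culture, with 17, gave 35 and 29 with day and slide blocks, 9 with only these groups, 0 with the fixed day block, and 2 to 30 with a sample left out. The within-day and within-slide correlations behind the larger counts were −0.211 and −0.248.

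For 4 against 2 days, with 1, 0 were called after median centring, with only these groups and without the newer scanner. It was 4 when the 2 near-identical arrays were counted separately, and 0 to 6 with a sample left out. The fit without the 3 dimmest arrays leaves only the averaged pair at 2 days, so no count is given for it. For 8 against 4 days, with 1, 0 were called after quantile normalization, median centring, with scan day as a block, with only these groups and without the 3 dimmest arrays, 2 with a strict filter and with separate arrays, and 0 to 2 with a sample left out. For 8 against 2 days, the fit without the 3 dimmest arrays aside, it was 0 in all settings, also with a sample left out (0 to 0). For experiment 2 against 1, with 18, it was 30 after quantile normalization, 11 with no filter, 0 with the day block, 46 with separate arrays, and 0 to 169 with a sample left out. Slide could not be fitted as a block in comparisons with experiment 2. The cause of these changes was not tested.

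The replicate block left 1 of 21 members for acetone against water control, 8 of 17 for acetone against culture, and 0 for every other comparison. The labels do not say whether same-numbered samples had more in common than the number. Their deviations correlated at −0.317 to 0.239 in experiment 1 and −0.476 to 0.536 in experiment 2. Over 23 differences of named members, each under its alternatives (436 values in all), none reversed. Where the groups do not overlap, leaving out a sample cannot change the sign, so that outcome was in part fixed. The 17 called differences missed the threshold in 134 of 306 values, and the 6 others passed it in 8 of 130. The number of members was 286 with a share of spots of 0.75 and 200 when all 9 arrays of experiment 1 were required. Saturation and the detection limits of culture replicate 3 and 8-day replicate 3 bound what the brightest and dimmest members can show.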
